A study of Mus musculus with 2 samples.

Results

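A set of 10 genes, grouped as T cell checkpoint and costimulatory genes, was examined in eosinophils of the mouse colon: Cd274, Pdcd1lg2, Cd80, Cd86, Icosl, Cd276, Lgals9, Cd40, Havcr2 and Cd200r1. The genes were chosen by name, as the rows of the expression table that carry one of these symbols or an older alias, keeping for each gene the row with the most reads. They are 10 of 23456 genes. By role, 7 encode ligands, whereas Cd40, Havcr2 and Cd200r1 encode receptors that myeloid cells can carry, so not every member is a ligand. The series holds 1 group of 2 samples, eosinophils that had been flow-sorted out of colons of naive wild-type C57BL6 mice after enzymatic digestion of the tissue, with no treated, mutant or other-tissue group beside them. The sources used here do not give the sort gate or the number, age and sex of the mice. RNA was read by CEL-Seq, which tags transcripts near their 3′ ends, in 3 technical libraries per sample. The table gives each transcript a mean read total and a mean RPKM, a read rate per kilobase of transcript and per 1000000 reads, over the 6 libraries, with no value per sample, so no SD over samples and no test between samples is given.

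A T cell that meets its antigen needs a second signal from the presenting cell. CD80 and CD86 give it through CD28 and withdraw it through CTLA-4, and the ICOS ligand sustains helper T cells through ICOS. PD-L1 and PD-L2 bind PD-1 and dampen the T cell, and galectin-9 is a secreted lectin described as a ligand of TIM-3. CD40 receives the CD40 ligand of helper T cells and thereby licenses antigen-presenting cells, TIM-3 is an inhibitory receptor of T cells and of some myeloid cells, and the CD200 receptor delivers a restraining signal to myeloid cells that touch CD200 on other cells. Eosinophils reside in the healthy gut wall next to lymphocytes.

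Galectin-9 and PD-L1 transcripts led the set, and of the classical costimulatory pair Cd80 lay above an RPKM of 1, used here as the detection level, and Cd86 below it. Since reads are tags near the 3′ end, division by length can understate long transcripts. The lengths used were 1700 bases for Cd80 and 2539 for Cd86. By reads per 1000000 reads on genes (RPM), without that division, they had 11.3 and 3.12. Of the 10 genes, 5 reached the detection level, beside 31% of all genes. These were Lgals9, Cd274, Icosl and Cd80 among the 7 ligands and Cd200r1 among the 3 receptors. The other 5 genes were all above 0, as were 16204 of all 23456 genes, but at an RPKM of 0.506 or less. The median member had an RPKM of 1.58, with 74.3% of all genes below it, and the median of all genes was 0.186. The members held 15283 reads over the 6 libraries, of which 88.8% belonged to Lgals9.

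**Figure D1:**
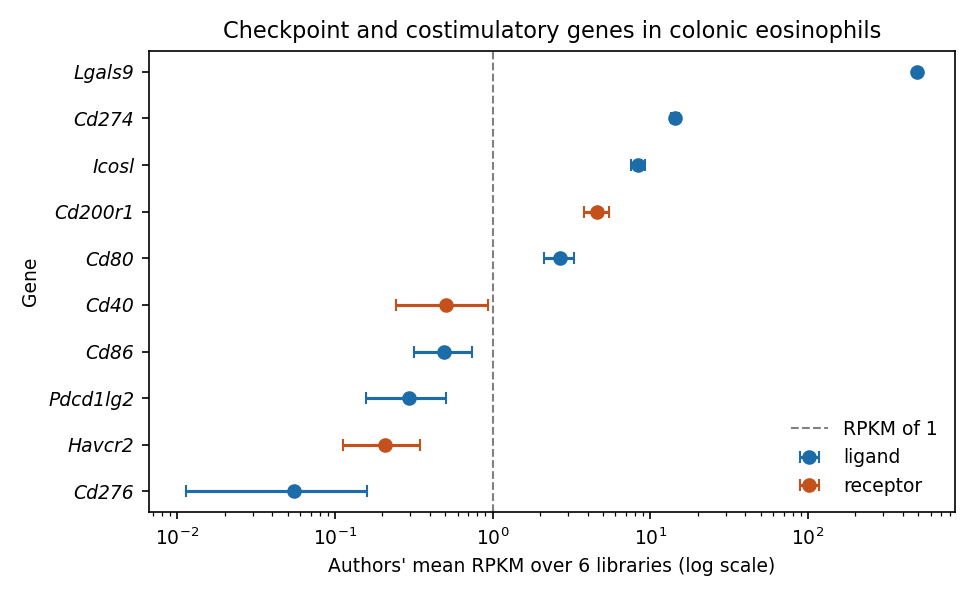
RPKM (authors' mean over 6 libraries, log axis) of the 10 genes, with ligands in blue and receptors in orange; bars are exact 95% Poisson intervals of the reads, scaled to RPKM, and cover counting error only. Lgals9 stands at 491, Cd274, Icosl, Cd200r1 and Cd80 lie between 2.66 and 14.4, and the remaining 5 lie below the dashed line at an RPKM of 1.

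Lgals9, which encodes galectin-9, had an RPKM of 491 (483 to 500, exact 95% Poisson interval of its 13578 reads). It ranked 61 among all genes, and 99.7% of genes lay below it. Its level was 34.1 times that of the next member. The gene lies on chromosome 11 from 78962979 to 78984924 on the minus strand (mm10). The table has 2 Lgals9 transcripts with the same start and end, which differ by 93 bases (31 codons): all reads are listed under the shorter, NM_001159301, and the longer, NM_010708, is listed at 0. A tag from the shared 3′ end does not cover that difference, and the sources used here do not say how the counter chose between the rows, so the split says nothing of which form the cells make.

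Cd274, which encodes PD-L1, followed with an RPKM of 14.4 (13.5 to 15.3) from 1011 reads and ranked 1586. Pdcd1lg2, which encodes PD-L2, had an RPKM of 0.295 (0.157 to 0.505) from 13 reads. Both bind PD-1, and the genes are neighbours on the plus strand of chromosome 19, Cd274 (NM_021893) from 29367438 to 29388094 and Pdcd1lg2 (NM_021396) from 29410919 to 29472927, with 22824 bases between them. The RPKM of Cd274 was 48.7 times that of Pdcd1lg2 (28.4 to 91.8, exact binomial interval at 95%). That ratio depends on the measure: the RPM was 131 for Cd274 and 1.69 for Pdcd1lg2. Division by length accounts for little of this, since the lengths used were 3638 and 3415 bases. The RPKM is a mean that weights the 6 libraries equally, whereas the RPM pools their reads. GENCODE places an antisense gene across part of each, AC119228.1 within Cd274 and A930007I19Rik over the end of Pdcd1lg2. The latter had an RPKM of 0.240, near that of Pdcd1lg2, and since strand use in counting is not given, reads of the pair cannot be told apart.

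The sequences just before the start sites of these 3 genes are shown because they hold the most abundant member and a neighbouring pair that differs in level. Each is the 250 bases before the RefSeq start (GRCm38.p6), read 5′ to 3′ on the strand of the gene, and each start equals that of the row in the table. Capitals mark matches, on either strand, to 4 motifs: GAAA and GAAA with 2 bases between them (IRF), TTCNNNGAA (STAT), TGANTCA (AP-1) and the NF-kB motif.
Lgals9, chr11:78984925-78985174, minus strand: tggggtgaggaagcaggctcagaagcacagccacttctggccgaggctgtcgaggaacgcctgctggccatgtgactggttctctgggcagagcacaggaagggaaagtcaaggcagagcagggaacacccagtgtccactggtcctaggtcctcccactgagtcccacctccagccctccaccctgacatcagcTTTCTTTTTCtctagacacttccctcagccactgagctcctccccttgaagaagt
Cd274, chr19:29367188-29367437, plus strand: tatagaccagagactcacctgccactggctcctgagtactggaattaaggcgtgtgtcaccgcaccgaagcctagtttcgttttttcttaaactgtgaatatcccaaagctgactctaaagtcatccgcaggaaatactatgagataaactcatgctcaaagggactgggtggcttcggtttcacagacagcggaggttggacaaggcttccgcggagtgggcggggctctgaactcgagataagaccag
Pdcd1lg2, chr19:29410669-29410918, plus strand: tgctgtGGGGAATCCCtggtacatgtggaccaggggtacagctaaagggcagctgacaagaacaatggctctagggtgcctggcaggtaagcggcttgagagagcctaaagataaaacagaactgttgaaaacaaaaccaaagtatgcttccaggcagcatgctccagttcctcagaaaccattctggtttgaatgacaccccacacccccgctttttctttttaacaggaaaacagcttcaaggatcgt

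With positions counted back from the start site, the Lgals9 window held an IRF motif at -55 to -46 and the Pdcd1lg2 window an NF-kB motif at -244 to -235. The Cd274 window held none of the 4 letter patterns. Of 32851 RefSeq windows of the same length, 2.98% held the IRF motif, 7.02% the STAT motif, 6.75% the AP-1 motif and 7.25% the NF-kB motif. No matches of different motifs overlapped in the 3 windows. RefSeq windows were matched for 7 of the 10 genes. Among the other 4 with a window, Cd80 and Havcr2 held an AP-1 motif, Icosl an NF-kB motif and Cd276 none. The Cd276 window belongs to another start than that of its row. A match is a description of letters and not of binding.

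Cd80 and Cd86 encode the B7-1 and B7-2 ligands of CD28 and CTLA-4. Cd80 (NM_009855, chromosome 16 from 38458933 to 38486932) had an RPKM of 2.66 (2.13 to 3.27) from 87 reads. Cd86 (NM_019388, chromosome 16 from 36603869 to 36666077) had 0.495 (0.317 to 0.736) from 24 reads. The RPKM of Cd80 was 5.37 times that of Cd86 (3.38 to 8.82). Without division by transcript length they were closer, at an RPM of 11.3 and 3.12. Of the T cell receptors of the pair, Cd28 had an RPKM of 0.797 and Ctla4 was listed at 0. A listing at 0 is no proof of absence, since Eno1, an enzyme of glycolysis that most cells need, has the same entry.

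Icosl, which encodes the ICOS ligand, was the third most abundant member, with an RPKM of 8.35 (7.56 to 9.19) from 414 reads (NM_015790, chromosome 10 from 78069368 to 78079525). Its receptor gene Icos, expressed by activated and helper T cells, had 1.57. Cd276, which encodes B7-H3, a B7 family member whose receptor is debated, had 0.0547 (0.0113 to 0.160) from 3 reads in all (NM_133983, chromosome 9 from 58524300 to 58540940). It was the lowest member, and 38.6% of all genes lay below it.

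Of the 3 receptors, Cd200r1 was the only one at the detection level. It had an RPKM of 4.58 (3.82 to 5.44) from 129 reads (NM_021325, chromosome 16 from 44765736 to 44794977), and Cd200, the gene of its ligand, had 0.795. Havcr2, which encodes TIM-3, had 0.207 (0.113 to 0.347) from 14 reads (NM_134250, chromosome 11 from 46454931 to 46481254).

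Cd40 has 5 transcript rows on chromosome 2 from 165055636 to 165071654. NM_170702, the row kept, had an RPKM of 0.506 (0.243 to 0.931) from 10 reads, NM_170703 had 0.498 with the same 10 reads, and the other 3 rows were listed at 0. RPKM times transcript length was the same in both rows to 6 digits, as it would be if both list the same reads. The sources used here do not say whether reads were divided between the rows or counted in each. Summed over rows, the RPKM would be 1.00. Cd40lg, the gene of the T cell ligand of CD40, was listed at 0.

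In order of level, Lgals9, Cd274, Icosl, Cd200r1 and Cd80 each differed from the next beyond their counting intervals, as did Cd80 from Cd40. Below that, the intervals of neighbours overlapped: Cd40 with Cd86, Cd86 with Pdcd1lg2, Pdcd1lg2 with Havcr2 and Havcr2 with Cd276. The order of such neighbours was therefore not resolved at this depth, although the interval of Cd276 lay below those of Cd40 and Cd86. For the 10 genes, 0% of the 35-base words that make up the final 500 bases of the matching GENCODE transcript occur in a transcript of another gene.

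The intervals treat reads as independent, and the libraries show that reads were not spread that way. Transcripts with 1 read in all gave the depths of the 6 libraries, numbered here by rising depth, as 1892486, 2070937, 2100580, 2396563, 4343108 and 4752358 reads. Of 472 such transcripts with a known length, 420 lay near these depths, and all 420 gave 1 of these whole numbers within the rounding of the table. With the depths and a transcript's length, a mean RPKM built from few reads usually matches only 1 way of placing them in the libraries. The placing depends on that length: among lengths up to 20 bases shorter or longer, 2 further solutions exist for Cd86, 1 for Pdcd1lg2 and 0 for Havcr2 and Cd276. This placed the reads of 1300 of 1666 transcripts with 2 to 24 reads and a known length, while 2 had several solutions and the rest none. Of 226 placed transcripts with 2 reads, 68.6% had both in the same library, where reads falling by depth alone would share a library in 19.3%. The labels name no molecular identifiers, so copies of 1 molecule cannot be told apart from separate molecules. The intervals above are too narrow for genes with few reads. For genes with more reads the spread over libraries could not be measured, so their intervals may be too narrow as well. None of the intervals holds variation between the 2 samples. Which library came from which of the 2 samples is unknown.

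Of the 4 members whose reads could be placed, Cd86 was read in every library, and Pdcd1lg2, Havcr2 and Cd276 were not. Cd86 had 1, 3, 4, 1, 4 and 11 reads in libraries 1 to 6, an RPKM between 0.164 and 0.912. Pdcd1lg2 had 6, 4 and 3 reads in libraries 2, 3 and 4, an RPKM of 0.848, 0.558 and 0.367 there, and 0 reads in library 1 and in the 2 deepest. Havcr2 had 2, 1 and 11 reads in libraries 4, 5 and 6 and 0 in the 3 shallowest, so 78.6% of its reads came from library 6. Pdcd1lg2 and Havcr2, with 13 and 14 reads, thus shared reads only in library 4. Cd276 had 2 reads in library 4 and 1 in library 6. The reads of Cd40 could not be placed as whole reads.

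**Figure D2:**
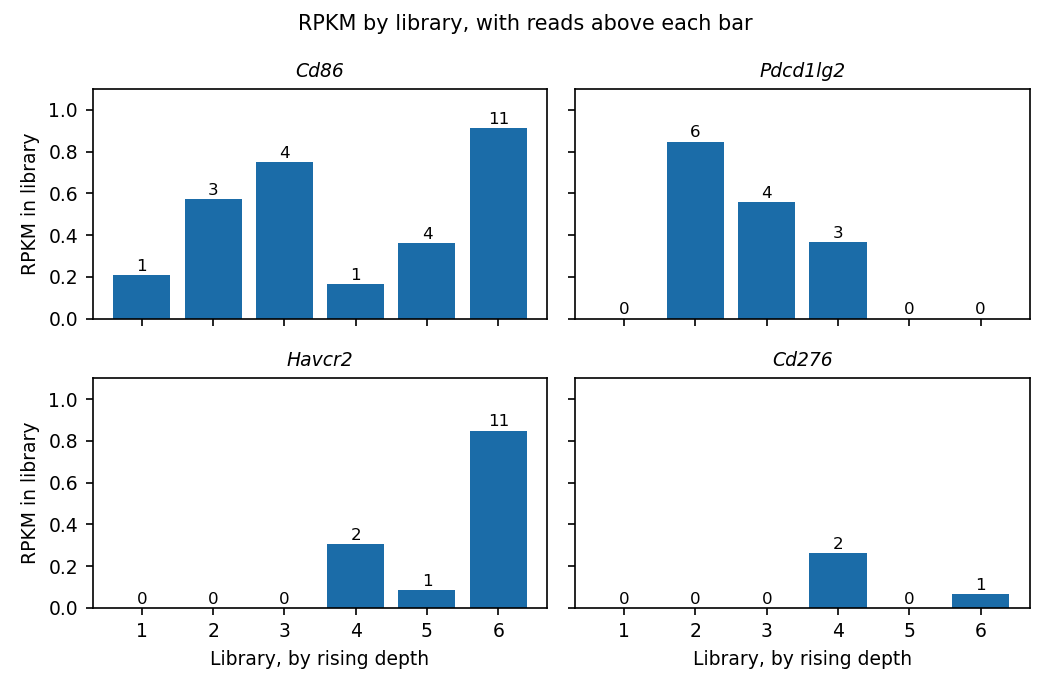
RPKM of 4 genes (linear axis) in each of the 6 libraries, ordered by rising depth, with the number of reads above each bar. Cd86 has reads in 6 of 6 libraries, Pdcd1lg2 and Havcr2 in 3 each and Cd276 in 2.

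A gene of 13 or 14 reads that was seen in few libraries was not unusual here. Of 70 placed transcripts with 13 or 14 reads, 52.9% were in 3 libraries or fewer and the median share in the fullest library was 53.8%. The share of Havcr2 reads in 1 library, 78.6%, was above that median and the 46.2% of Pdcd1lg2 below it.

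For the 5 members at the detection level, the reads were too many to place, but the mean RPKM bounds the share in the 2 deepest libraries, which hold 51.8% of the summed depth. Between 51.5% and 73.0% of the Cd274 reads came from them, 51.2% to 72.8% for Cd80, 45.0% to 68.5% for Lgals9 and 41.0% to 65.7% for Icosl. Cd200r1 had the lowest range, 6.96% to 42.1%. At the length used for it, 1891 bases, at least 57.9% of its reads came from the 4 shallower libraries, which hold 48.2% of the depth. The depth of the library an average Cd200r1 read came from (the harmonic mean over its reads) was 2482174 reads, and 2.77% of 1192 transcripts with 80 or more reads lay lower. All these bounds and this depth depend on the transcript lengths used, and other lengths were not tried for them.

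Levels of the other genes of these pathways differed from list to list. The counts at an RPKM of 1, in these lists and in the marker lists below, stand beside 31% of all genes. In the list of other B7 and butyrophilin family ligands, 1 of 9 genes reached an RPKM of 1. This was Vsir, which encodes the inhibitory ligand VISTA, at 12.8, close to Cd274. Btnl1 followed at 0.418 and Btn1a1 at 0.150, and Btn2a2, Btnl4 and Btnl6 were listed at 0. Of 7 costimulatory ligands of the TNF family 1 reached it, Tnfsf14 (LIGHT), at 10.8. Tnfsf15 had 0.268 and Tnfsf9 0.205, and Cd70, Tnfsf18 and Tnfsf8 were listed at 0.

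Among ligands of other lymphocyte and phagocyte receptors, 3 of 7 reached an RPKM of 1. Cd47, the ligand of SIRPA that restrains phagocytes, had 53.4, Cd48 had 12.3, and Pvr, a ligand of TIGIT and CD226, had 3.28. Tnfrsf14, the ligand of BTLA, was listed at 0. A list of 13 partner genes held receptors that T cells use for such ligands, and also the ligand genes Cd40lg and Cd200. Of these 13 genes, 2 reached an RPKM of 1: Tnfrsf18 (GITR) at 9.35 and Icos at 1.57, with Cd28 next. Pdcd1, the PD-1 gene, had 0.0721 from 2 reads. In this list 4 genes were at 0, Cd226, Cd40lg and Ctla4 among them.

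The galectin family, which binds glycans on cell surfaces, had 6 of 9 further genes at an RPKM of 1 or more. Lgals3 had 108, Lgals4, a galectin of gut epithelium, 30.1 and Lgals1 19.5, all below Lgals9. In the list around TIM-3, 2 of 7 genes reached it. Ceacam1, an adhesion molecule described as a TIM-3 ligand, had 117 and the TIM-3 adaptor Bag6 38.3, whereas the kinase gene Fyn had 0.774 and the family members Havcr1 and Timd2 were listed at 0. Of the searched words of Ceacam1, 43.1% occur in transcripts of other genes, which makes its level uncertain. To a lesser extent this also applies to Btnl4 (19.3%) and Btnl6 (17.2%), listed at 0 above, and to Traf5 (13.1%), given below. In the list around the CD200 receptor, 4 of 7 reached an RPKM of 1, led by the adaptor Dok2 at 40.1, the lipid phosphatase Inpp5d at 19.8 and Rasa1 at 4.16. The paralogs Cd200r3 and Cd200r4 were listed at 0.

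Of 8 adaptors that act below CD40 and related receptors, 5 reached an RPKM of 1, led by Birc3 at 184, Traf5 at 7.16 and Birc2 at 3.67. They serve many receptors of the TNF family. Of 11 genes of PD-L1 induction and surface stability, 10 reached it, with a median of 12.8. Jak1 had 121, the interferon gamma receptor chain Ifngr1 42.9 and Jak2 34.4.

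**Figure D3:**
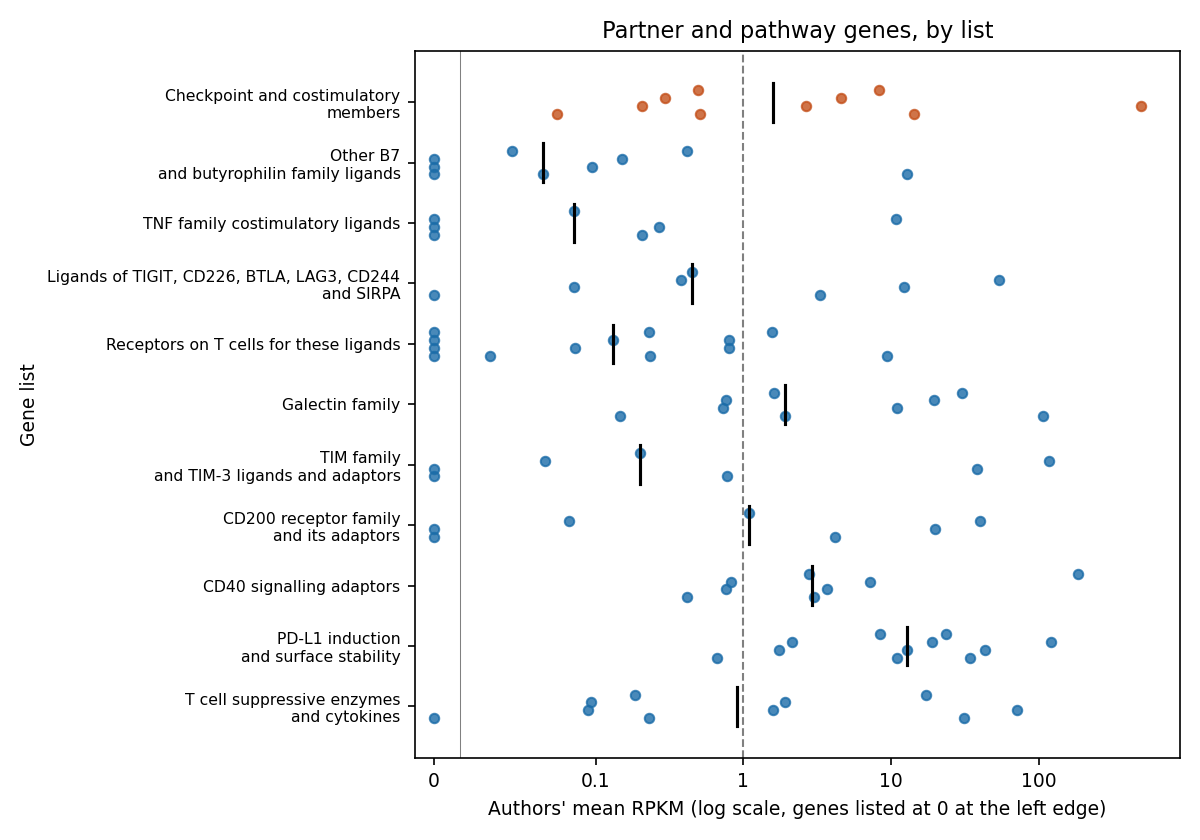
RPKM (authors' mean, log axis) of the 10 genes (orange) and of the genes of 10 related lists (blue), with list medians as black bars, genes listed at 0 at the left edge and an RPKM of 1 dashed. The PD-L1 induction list has 10 of 11 genes at or above the line, the other B7 and butyrophilin list 1 of 9. The list labelled as receptors on T cells also holds the ligand genes Cd40lg and Cd200.

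Eosinophil markers were present: 6 of 7 reached the detection level, with a median RPKM of 74.3 and a summed RPKM of 586; Ccr3, the eotaxin receptor, had 155 and Epx, the peroxidase, 0.265. Of 9 dendritic cell markers 1 reached an RPKM of 1, Batf3 at 4.10, with Flt3 at 0.0434, Zbtb46 at 0.0810 and Clec10a and Cd209a listed at 0, and a summed RPKM of 4.84. Of 7 B cell markers 1 reached it, with Pax5 listed at 0 and a sum of 2.03. Of 8 T cell markers 3 did, Cd4 at 1.56, Cd3e at 1.44 and Cd3g at 1.06, with a sum of 4.88. Mast cell and neutrophil markers summed to 4.36 and 1.72, with 2 of 7 and 0 of 6 at the level.

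Other colonic cells were marked more strongly. All 8 epithelial markers reached the level with a sum of 211, Epcam at 89.3 among them. Of 6 fibroblast markers 5 did, with a sum of 137 and Col3a1 at 66.7. Of 9 macrophage markers 5 did, with a sum of 147.5, Apoe at 54.3, Csf1r at 41.0 and Mertk listed at 0. Of 6 endothelial markers 2 did, Pecam1 at 16.3 and Plvap at 12.4, with a sum of 30.3. Lgals9, Cd274 and Icosl can also be expressed by such cells, and the part of such cells' RNA in the levels of these or the other members was not tested. The RPKM of Lgals9 was above that of every gene in the 10 marker lists, which does not measure that part.

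**Figure D4:**
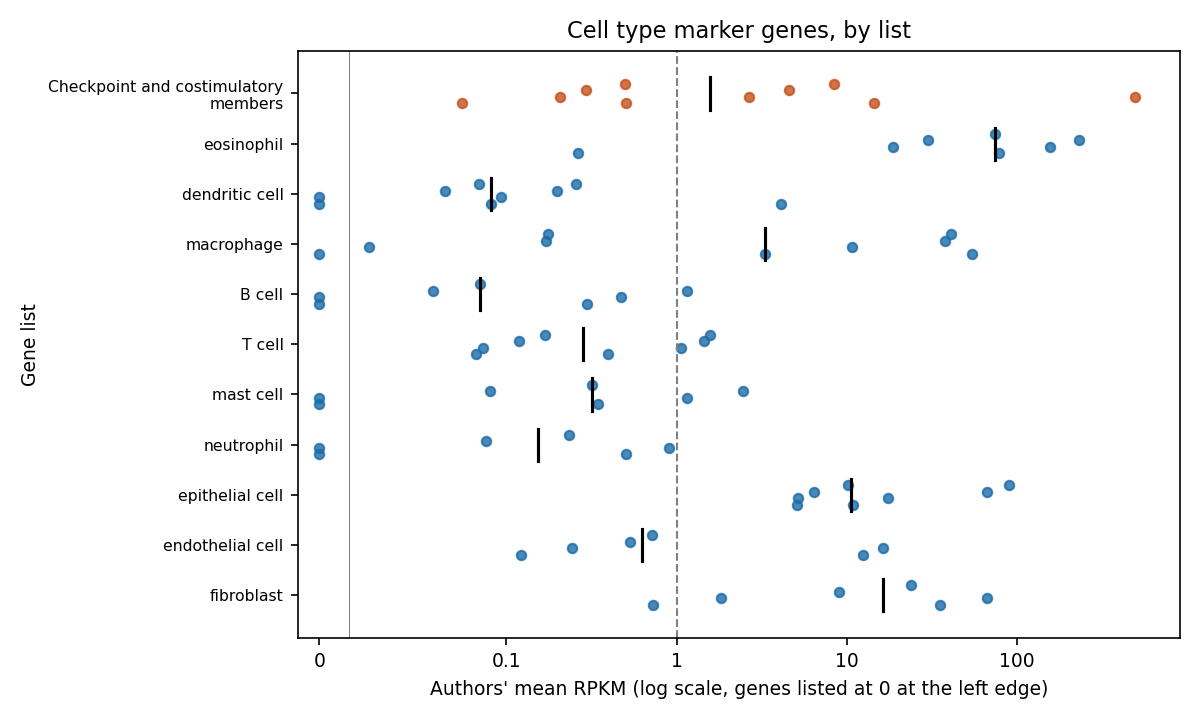
RPKM (authors' mean, log axis) of the 10 genes (orange) and of marker genes of 10 cell types (blue), with list medians as black bars, genes listed at 0 at the left edge and an RPKM of 1 dashed. Eosinophil markers have a median of 74.3, dendritic cell, B cell and T cell markers medians of 0.0810, 0.0702 and 0.283, and all 8 epithelial markers lie above an RPKM of 5.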

How the data were processed

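Colonic eosinophils of naive mice were profiled in 2 samples of 1 group. STAR 2.4.2a, DESeq and the build mm10 are named, without a role, per the submitters' processing notes. The sources used here do not give the read counter, the annotation release or the treatment of reads with several alignments. The table, of 31295 rows, holds RPKM values computed by the authors and mean read totals deposited by the authors. Of the read totals, 100% are whole within 0.001 when multiplied by 6 and 48.8% are whole themselves, as means over 6 libraries would be. Each value is the authors' mean for the group, and 0 columns belong to other samples.

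RefSeq accessions gave the current symbol of 30730 rows; 402 were matched by symbol, 85 by synonym, and 78 kept their own. The row with the most reads per gene left 23456 genes, with 7692387 reads. RPM is reads per 1000000 of these. A floor of 3 reads, set as a rule of thumb for a count of 0 and not taken from the intervals, equals an RPM of 0.390. Intervals are exact Poisson at 95% and cover counting error only. Transcript lengths were those of GENCODE M21, with terminal exons moved to the ends of the row. Reads of rows with up to 24 reads were placed in libraries by trying every allocation, each library's RPKM rounded to 6 digits; this step was chosen after the table was seen. On simulated rows, 100% were placed rightly and depths were off by 0 reads. Those rows had exactly known lengths, the same rounding and reads spread by depth alone. They therefore check the procedure and not whether its assumptions hold in the data.

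Members and lists were chosen with earlier results of these data known. The text names all members, their T cell partners, the 3 highest genes of each pathway list and up to 3 at 0. The marker genes named, Eno1 and the antisense genes were chosen after their values were seen. Ly6g was not matched. The planned comparison of the 2 samples was not possible from group means. Scripts ran in Python 3.11.15, with matplotlib 3.10.9, scipy 1.17.1, pandas 2.3.3 and numpy 2.4.6.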

Additional observations from a re-analysis of the deposited data

How the results depend on the processing

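The count of 5 genes at the detection level became 10 for any RPKM above 0, a level that 16204 of all 23456 genes also reached. It was 3 at an RPKM of 5 and 9 at an RPM of 1. The RPM leaves out transcript length, pools the libraries and is scaled to reads on genes, which are 43.8% of the summed depth. An RPM of 1 and an RPKM of 1 are therefore unlike thresholds. The share of all genes was not counted at an RPKM of 5 or an RPM of 1. The count was 5 with the row of the highest RPKM and 6 with the sum over rows. By RPM, Lgals9 ranked 77, Cd274 1099, Cd200r1 4736, Cd80 5727 and Cd40 11201, outside their counting intervals, and the other 5 ranks stayed inside. By RPM 3 genes changed place, Cd40 falling behind Cd86, Havcr2 and Pdcd1lg2. The share of genes below the median member was 62.9% among genes above 0 and 70.5% by RPM. Cd40 had 1.00 as the sum over rows. Leaving out each library in turn gave 0.0782 to 0.248 for Havcr2, lowest without library 6, and 0.0132 to 0.0656 for Cd276, lowest without library 4. It gave 0.185 to 0.355 for Pdcd1lg2, lowest without library 2, and 0.411 to 0.561 for Cd86. That those 4 stayed below an RPKM of 1 was fixed in advance, since their highest RPKM in any library was 0.912. The libraries and the summed Cd40 level were added after the data were seen. Depth limits the 5 lowest members, with 3 to 24 reads each. No paired analysis was possible because the table holds 1 mean per transcript for 1 group.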

Other observations

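Genes for other means by which myeloid cells restrain T cells were uneven. The median of 10 enzyme and cytokine genes was an RPKM of 0.905, and 5 were at 1 or more, beside 31% of all genes. Ebi3, a chain shared by interleukin-27 and interleukin-35, had 70.9 (67.5 to 74.6) from 1546 reads, although Il12a, the partner chain in interleukin-35, was listed at 0. Entpd1, the ectoenzyme CD39 that degrades extracellular ATP, had 31.1, and Nt5e, the ectoenzyme CD73 that completes the path to adenosine, had 1.58. Tgfb1, the transforming growth factor gene, had 17.3 and Arg1 1.92. Il10, Ido1, Ido2 and Nos2 lay between 0.0892 and 0.230. Nt5e, Arg1, Il10, Ido1, Ido2 and Nos2 were named after their values were seen.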
